A study of Mus musculus with 4 samples.

Results

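The 10 genes followed here belong to bone morphogenetic protein (BMP) and activin signaling and were measured in the cell populations of the E16.5 mouse penis. They were taken by name, 7 ligands (*Bmp2*, *Bmp3*, *Bmp4*, *Bmp5*, *Bmp6*, *Bmp7* and *Inhba*) and 3 genes that the pathway is known to switch on (*Id1*, *Id3* and *Smad6*), from the 32285 mouse genes that were counted, and all 10 were found. The penises came from male embryos at embryonic day 16.5, when the urethra is closing. Control embryos, labelled DTA-, carried 1 *Rosa-LSL-DTA* allele and no Cre. Embryos labelled DTA+ carried the same allele together with *Nr5a1-Cre*, so that diphtheria toxin A was made in cells with a history of *Nr5a1* expression and killed them. Per the methods, the ablated embryos also carried *Rosa-LSL-tdTomato*, and their testes and adrenals were hit too, so that loss of *Nr5a1*-lineage cells in the penis cannot be told apart from loss of hormones. Each genotype had 2 single-cell libraries.

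BMPs are secreted dimers of the TGFβ superfamily. They bind pairs of type I and type II receptor kinases, which phosphorylate SMAD1, SMAD5 and SMAD9, and these enter the nucleus with SMAD4. *Inhba* encodes the βA chain of activin A, which acts through ACVR2 and ACVR1B receptors on SMAD2 and SMAD3. *Id1* and *Id3*, inhibitors of basic helix-loop-helix transcription factors, are textbook direct BMP targets, and *Smad6* encodes an inhibitory SMAD that feeds back on the pathway. In the genital tubercle, BMPs from mesenchyme and urethral plate are known for roles in outgrowth, cell death and urethral closure, and secreted antagonists such as noggin, gremlin and follistatin bind the ligands outside the cell.

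Promoter sequences are shown for the 4 members whose RefSeq start lies within 1 base of the gene's start in the GENCODE annotation and that bear on the results: *Inhba* and *Bmp4*, the ligands called in most populations, *Bmp5*, and the feedback gene *Smad6*. Each runs from 250 bases before the RefSeq start site to 10 bases after it (GRCm38.p6), is written 5′ to 3′ on the gene's strand, and has in capitals the bases GTCTAGAC or CAGAC and GTCTG, which occur in SMAD-binding elements. The *Inhba* window is chr13:16011601-16011860 (plus strand), that of *Bmp4* chr14:46390660-46390919 (minus strand), that of *Bmp5* chr9:75775115-75775374 (plus strand) and that of *Smad6* chr9:64022050-64022309 (minus strand).
Inhba: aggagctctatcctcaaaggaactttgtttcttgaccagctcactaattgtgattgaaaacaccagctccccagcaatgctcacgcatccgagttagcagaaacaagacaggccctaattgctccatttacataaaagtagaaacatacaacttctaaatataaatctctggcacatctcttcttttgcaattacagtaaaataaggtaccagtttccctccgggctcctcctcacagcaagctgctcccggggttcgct
Bmp4: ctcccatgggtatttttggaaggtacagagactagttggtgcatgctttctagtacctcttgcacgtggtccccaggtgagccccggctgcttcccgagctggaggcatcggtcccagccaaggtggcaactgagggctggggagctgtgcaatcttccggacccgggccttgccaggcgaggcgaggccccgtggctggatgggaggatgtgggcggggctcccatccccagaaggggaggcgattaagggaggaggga
Bmp5: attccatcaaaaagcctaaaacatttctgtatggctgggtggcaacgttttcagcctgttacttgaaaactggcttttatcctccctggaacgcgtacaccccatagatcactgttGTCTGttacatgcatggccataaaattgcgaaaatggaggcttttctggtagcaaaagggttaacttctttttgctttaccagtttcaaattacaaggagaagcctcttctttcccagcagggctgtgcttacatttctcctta
Smad6: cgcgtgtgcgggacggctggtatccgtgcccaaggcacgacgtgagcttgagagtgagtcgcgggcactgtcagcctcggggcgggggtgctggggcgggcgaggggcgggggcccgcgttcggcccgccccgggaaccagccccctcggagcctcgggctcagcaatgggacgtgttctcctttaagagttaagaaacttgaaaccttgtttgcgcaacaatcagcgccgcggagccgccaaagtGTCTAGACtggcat
The *Smad6* window held the palindrome GTCTAGAC, whose first base lies 4 bases before the start site. Of 32851 windows of the same length in the RefSeq table, 0.177% held it. *Bmp5* held 1 GTCTG, 134 bases before the start, and 44.0% of all windows held CAGAC or GTCTG. Neither the *Inhba* nor the *Bmp4* window held these letters or GGCGCC, a core of GC-rich BMP response elements that occurred in 9.96% of all windows. AGAACA, a core sequence bound by glucocorticoid and androgen receptors, was searched on both strands as well and was found in *Smad6* among the 4, as in 16.7% of all windows. In all, 6 of the 10 members had an entry in the table. These are matches of letters only.

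The libraries held between 11343 and 12580 cells and between 50779551 and 73577028 UMIs (unique molecular identifiers, each marking 1 captured mRNA molecule). Of 47040 cells, 31132 passed the cell filters, with a median of 3551 to 4700 UMIs per cell. DTA- replicate 1 kept 52.2% of its cells and the other libraries 67.8% to 77.7%, and 21.4% of its cells had 7500 UMIs or more, against 9.98% to 11.2% in the others. Between 31 and 48 cell barcodes were shared by any pair of libraries. *tdTomato* had 0 UMIs in both DTA- libraries, and 3579 and 3140 in the DTA+ libraries. Joint clustering gave 27 clusters, of which 20 matched fixed marker lists and were merged into 14 populations. Their names stand for marker profiles, as in periurethra-like or osteogenic-like. Each of the 7 unnamed clusters is called by its number. Cluster 0 was led by *Sostdc1* and *Wnt16*, cluster 4 by *Irx1* and *Col7a1*, cluster 5 by *Coch*, *Meox2* and *Wif1*, and cluster 6 by *Thbd* and *Ptgis*. *Rprm*, *Dsc3*, *Wnt10a* and *Notum* led cluster 13, *Kera* and *Nefl* cluster 16, and *Iyd* cluster 17. Cluster 13 was also enriched in the distal glans markers *Tac1*, *Tfap2c* and *Wnt5a* and in the osteogenic markers *Dlx5* and *Dlx6*. Cluster 17 was enriched in the periurethra markers *Foxl2* and *Foxf2* and the general prepuce markers *Akap12* and *Lum*. Its 515 and 272 ablated cells entered no test within a population. With at least 20 cells in every sample, 19 of the 21 populations could be tested; smooth muscle had 13 cells in DTA+ replicate 2, and cluster 17 had 1 and 5 control cells. UMIs were summed per sample and population, scaled to counts per 1000000 (CPM) by edgeR's TMM method and tested between genotypes with edgeR's quasi-likelihood test. A gene is said to be called, or to have risen or fallen in ablated penises, where its Benjamini-Hochberg adjusted p was under 0.05. Nothing in the labels gives the number of embryos in a library, and p-values measure the spread between these libraries.

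**Figure D1:**
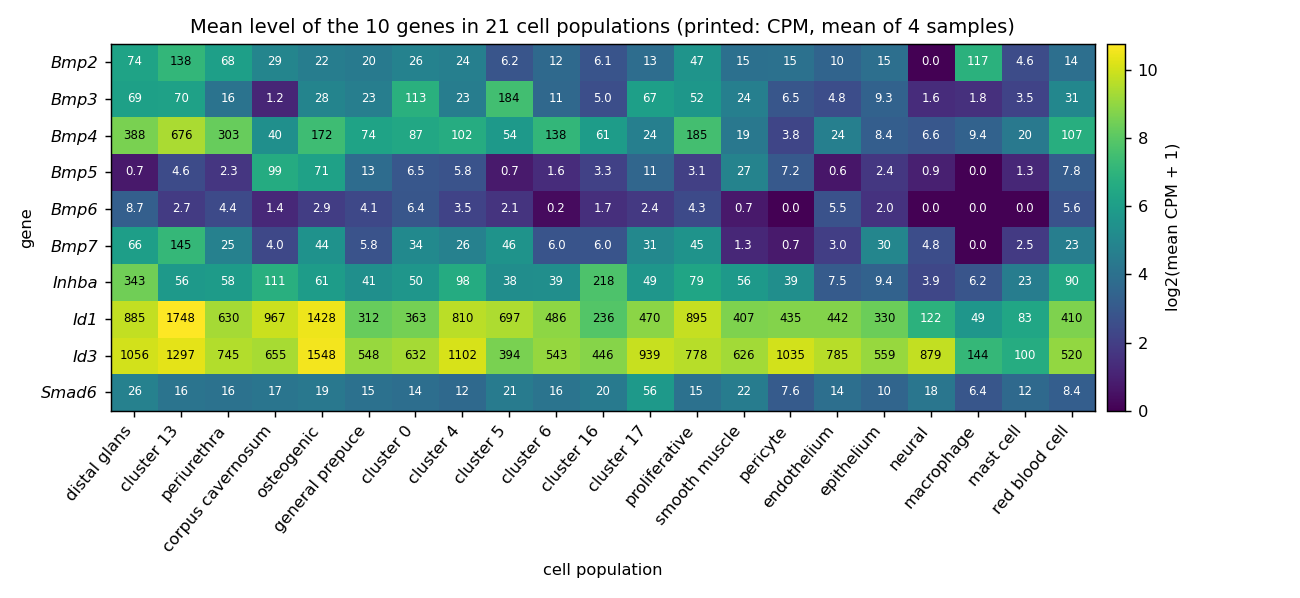
Level of the 10 genes (rows) in 21 cell populations (columns), as CPM averaged over the 4 samples; color gives log2(CPM + 1) and the printed numbers give the CPM. *Bmp4* was highest in cluster 13 at 676 CPM, *Inhba* in the distal glans at 343 CPM and *Bmp5* in the corpus cavernosum at 99.0 CPM; cluster 17 rests on 1 and 5 cells in the controls.

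The ligands were laid out in different populations. Of the 10 genes, 7 were among the variable genes that made the clusters, and *Inhba* and *Bmp4* were among the 10 leading genes of a distal glans cluster each, so these levels are a description without a test. *Bmp4* was at 676 ± 90.8 CPM (SD over 4 samples) in cluster 13, at 388 ± 59.5 CPM in the distal glans and at 303 ± 59.3 CPM in the periurethra, and the samples of the last 2 overlapped. The distal glans is the tip mesenchyme and the periurethra the mesenchyme around the urethra. In endothelium, epithelium, neural cells, macrophages and pericytes, *Bmp4* lay between 3.8 and 24.2 CPM.

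*Bmp7* had the same peak, 145 ± 17.9 CPM in cluster 13, followed by 65.5 ± 8.73 CPM in the distal glans, and it was at 29.9 CPM in epithelium. *Bmp2* was likewise highest in cluster 13, at 138 ± 56.6 CPM, but macrophages came next at 117 ± 59.6 CPM, and the samples of the 2 overlapped. *Bmp3*, whose product is known to oppose other BMPs, was highest in cluster 5 at 184 ± 59.0 CPM and in cluster 0 at 113 ± 12.2 CPM. *Bmp5* was at 99.0 ± 43.0 CPM in the corpus cavernosum, the *Sox9*-positive erectile body, and at 71.0 ± 24.7 CPM in the osteogenic population, with overlap between samples, and below 30 CPM in the other 19 populations. *Bmp6* stayed below 10 CPM in all 21 populations.

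*Inhba* was highest in the distal glans, at 343 ± 101 CPM, and in cluster 16 at 218 ± 74.5 CPM, which again overlapped. Its level was 3.88 CPM in neural cells, 6.17 CPM in macrophages and 7.48 CPM in endothelium, low values to which free RNA can add UMIs. Red blood cells stood at 90.4 CPM of *Inhba* and 107 CPM of *Bmp4*, so that cluster held mesenchymal transcripts as well. *Id1* peaked in cluster 13 at 1748 ± 801 CPM and in the osteogenic population at 1428 ± 624 CPM, and *Id3* in the osteogenic population at 1548 ± 455 CPM. Macrophages and mast cells were lowest in both, with 48.9 and 83.1 CPM of *Id1* and 144 and 99.5 CPM of *Id3*. *Smad6* lay between 6.42 CPM in macrophages and 25.7 CPM in the distal glans when cluster 17 is set aside.

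To ask how the ablation touched the pathway as a whole, UMIs were first summed over all kept cells. No member was called with edgeR's quasi-likelihood test, where 0.488% of 15977 genes were. An unadjusted p under 0.05 was reached by 4 members and by 15.1% of all genes, and DESeq2 called 2 members and 3.45% of all genes. *Bmp5* stood at 9.23 and 11.9 CPM in controls and 19.7 and 27.0 CPM in ablated penises, a log2 fold change of 1.15 (edgeR adjusted p = 0.0875, DESeq2 adjusted p = 0.000199). *Inhba* stood at 84.1 and 55.0 CPM in controls and 114 and 143 CPM in ablated penises, a log2 fold change of 0.89 (edgeR adjusted p = 0.156, DESeq2 adjusted p = 0.00254). The samples of the 2 genotypes did not overlap for either gene. With 2 against 2 samples, a lack of overlap is a description here and below. The share of all genes without overlap is not given. The other 2 members with an unadjusted p under 0.05 by edgeR were *Bmp6* (-0.89) and *Bmp2* (-0.36), both lower in ablated penises. A sum over all cells moves both with the make-up of the sample and with the level per cell, which cannot be told apart in it.

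**Figure D2:**
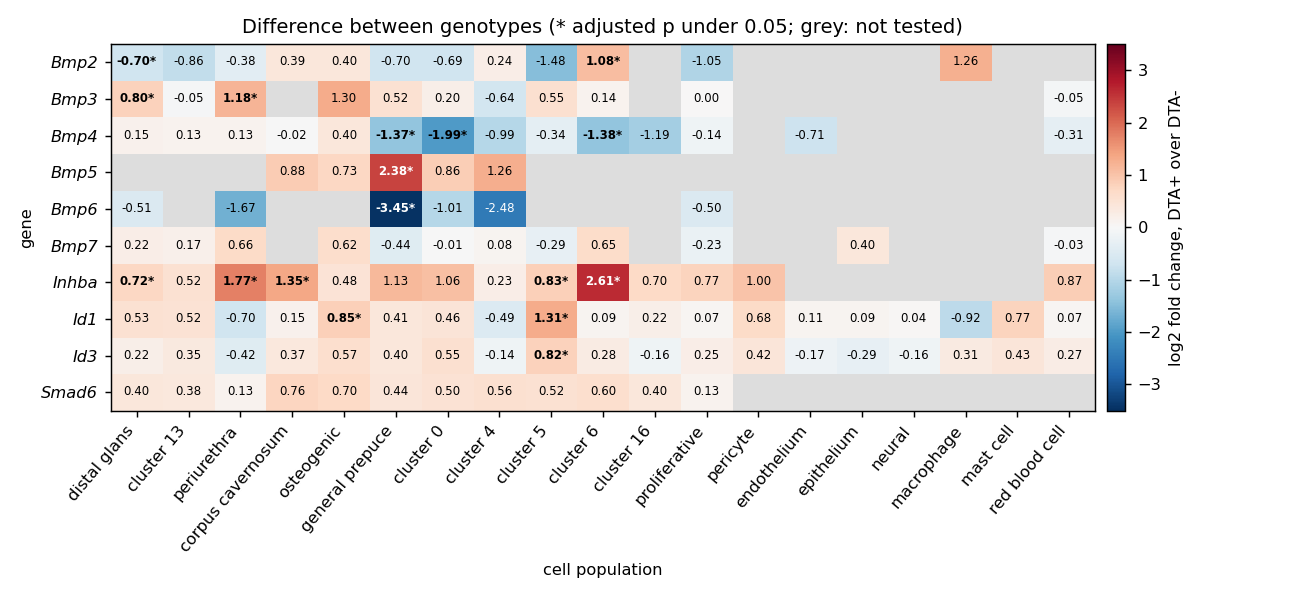
Log2 fold change of ablated over control penises for each gene (rows) in each of the 19 tested populations (columns), from edgeR's quasi-likelihood fit on summed UMIs of 2 against 2 samples; asterisks mark an adjusted p under 0.05 and grey cells were not tested because of low counts. The *Inhba* row is above 0 in 14 of 14 populations and the *Bmp6* row below 0 in 6 of 6, and all populations come from the same libraries.

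Within populations, 124 of the 190 pairs of member and population had enough counts for the test. Of these, 17 were called with edgeR's quasi-likelihood test, 12 higher and 5 lower in ablated penises. The share over all genes and populations was 3.2%, with 1.54% higher and 1.66% lower. The members were chosen with earlier results of these data known, so setting these shares side by side is a description. Cluster 6 had 3 calls among 8 members tested, where 12.3% of all genes were called, and cluster 5 had 3 among 8, where 8.18% were. In the distal glans 3 of 9 members were called (background 4.96%), in the general prepuce 3 of 10 (3.88%) and in the periurethra 2 of 9 (3.51%). The corpus cavernosum (7.74%), cluster 0 (2.83%) and the osteogenic population (1.74%) had 1 call each. The median log2 fold change over the ligands tested lay between -0.44 in the general prepuce and 0.65 in cluster 6 in these 8 populations, and that over the 3 targets between -0.42 in the periurethra and 0.82 in cluster 5, where the median over all genes was -0.01 to 0.01. *Inhba* made 5 of the 12 higher calls and *Bmp4* 3 of the 5 lower ones. No member was called in endothelium (0.0177%), neural cells (0.105%), pericytes (0.161%) or red blood cells (0.273%), nor in epithelium, macrophages and mast cells, where no gene was. None was called in cluster 4 (0.539%), cluster 13 (0.349%), cluster 16 (0.555%) or the proliferative cells (0.429%) either.

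*Inhba* (ENSMUSG00000041324; chr13:16011851-16031621 of GRCm38) was the member that moved in the most populations. In the distal glans it was at 285 and 235 CPM in the controls and at 399 and 455 CPM in the ablated penises. Both ablated samples lay above both controls, and the log2 fold change was 0.72 (standard error 0.128, edgeR adjusted p = 0.00593). In the periurethra the controls had 29.6 and 22.6 CPM and the ablated samples 108 and 74.2 CPM, again without overlap, with a log2 fold change of 1.77 (standard error 0.23, edgeR adjusted p = 0.003). In the corpus cavernosum it went from 65.9 and 59.2 CPM to 153 and 167 CPM, a log2 fold change of 1.35 (standard error 0.159, edgeR adjusted p = 7.76e-05). Without DTA+ replicate 2, the corpus cavernosum value was 1.29 and no longer called, while the calls in the distal glans and periurethra held with any 1 sample left out. *Inhba* is a leading gene of a distal glans cluster, and with the pathway genes left out of the clustering it was still called in the distal glans.

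The largest *Inhba* difference was in cluster 6, where the gene was low in controls, at 15.2 and 5.62 CPM, and reached 73.3 and 61.0 CPM in ablated penises. The ablated samples lay well above the controls (log2 fold change 2.61, standard error 0.295, edgeR adjusted p = 8.91e-06). Leaving out any 1 sample kept the call, with 3.55 at most, without DTA- replicate 1. At a clustering resolution of 0.4, which placed these cells in a wider cluster, the value was 1.30 and still called. In cluster 5 *Inhba* went from 26 and 29.1 CPM to 54.5 and 42.3 CPM, without overlap (0.83, standard error 0.228, edgeR adjusted p = 0.0308). This call was lost without DTA- replicate 1 (0.75), without DTA+ replicate 1 (0.61) and without DTA+ replicate 2 (0.99), in DESeq2 (0.83) and after thinning all cells to 1000 UMIs (0.59). In the other 9 tested populations its log2 fold change lay above 0 as well, from 0.23 in cluster 4 to 1.13 in the general prepuce, without a call. Proliferative cluster 9 by itself was called, with 80.2 and 44.4 CPM against 119 and 151 CPM (1.10, edgeR adjusted p = 0.0094, background 1.43%). Of 5666 genes tested in at least 14 populations, 1.08% were above 0 in all of them and 0.671% were called higher in 5 or more. *Inhba* was tested in 14, and the set includes genes tested in more, for which being above 0 in all is harder to meet. The populations share the same libraries, so their directions are not independent. Cells with at least 1 *Inhba* UMI made up 43.4% and 35.3% of the distal glans in controls and 52.6% and 54.7% in ablated penises. With each cell thinned to 1000 UMIs, the shares were 20.7% and 18.5% against 29.5% and 29.7%. In macrophages, where its level was low, the unthinned share was 0% to 3.28%.

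The distal glans was made of 2 clusters that differed in *Inhba*. Cluster 1, led by *Msx2* and *Inhba* itself, had 423 and 350 CPM in controls and 448 and 550 CPM in ablated penises. It was not called by itself (0.35, edgeR adjusted p = 0.31), in a fit where 1.03% of all genes were called. Cluster 3, led by *Tac1* and *Tfap2c*, had 157 and 112 CPM in controls and 333 and 358 CPM in ablated penises. There the samples did not overlap, and the log2 fold change was 1.29 (edgeR adjusted p = 2.73e-07), in a fit where 8.91% of all genes were called. Clusters 1 and 3 were not tested against each other, for *Inhba* or any other member. The periurethra was likewise made of 2 clusters, and *Inhba* rose in both. Cluster 8, with the markers *Foxl2* and *Sall3*, had a log2 fold change of 1.79 (edgeR adjusted p = 0.0122, background 4.12%), and cluster 10, with *Hhip* and *Gli1*, one of 1.76 (edgeR adjusted p = 2.66e-06, background 4.25%).

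**Figure D3:**
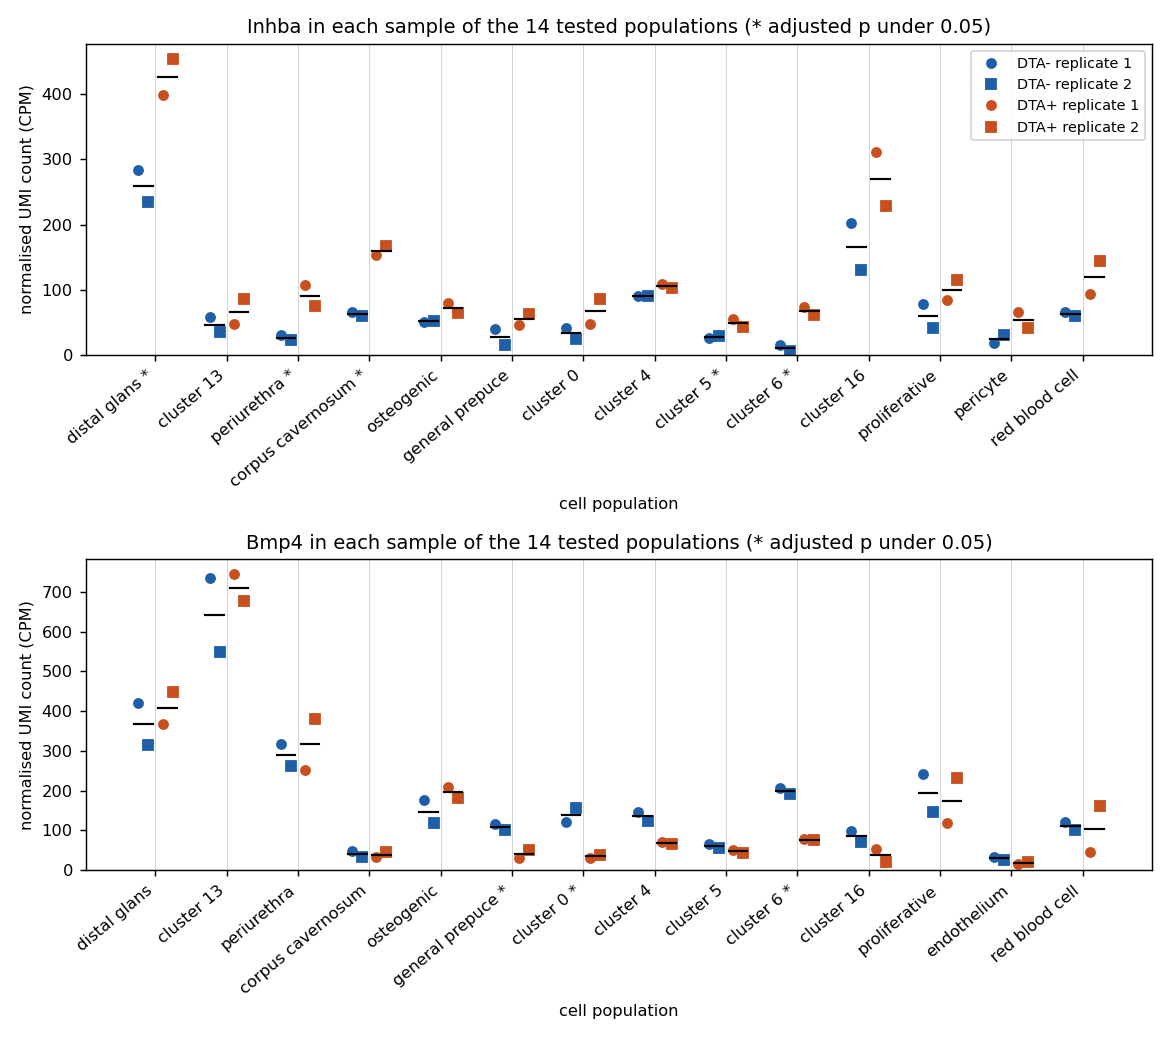
*Inhba* (top) and *Bmp4* (bottom) in CPM in each sample of the tested populations; points are samples, bars are genotype means and asterisks mark an adjusted p under 0.05. *Inhba* means are higher in ablated (orange) than control (blue) penises throughout, whereas *Bmp4* is lower in the general prepuce and clusters 0 and 6 and close to control in the distal glans, periurethra and cluster 13.

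*Bmp4* (ENSMUSG00000021835; chr14:46383520-46390669), a ligand of the BMP2/4 group, fell in 3 populations and was not called in those where its level was highest. In cluster 0 it was at 122 and 156 CPM in controls and at 31.3 and 38.8 CPM in ablated penises. The groups were far apart, with a log2 fold change of -1.99 (standard error 0.198, edgeR adjusted p = 0.000205). At resolution 1.2 these cells fell mainly into 2 clusters that split by genotype, with 494 and 940 control and 275 and 343 ablated cells in the first, and 71 and 38 control and 433 and 395 ablated cells in the second. *Bmp4* was lower in ablated samples inside both, at 109 and 151 CPM against 45.6 and 38 CPM in the first and 181 and 213 CPM against 24.5 and 36.2 CPM in the second, so the groups did not overlap in either. In cluster 6 it went from 208 and 192 CPM to 77.2 and 76.1 CPM, a log2 fold change of -1.38 (standard error 0.167, edgeR adjusted p = 1.76e-05). In the general prepuce 116 and 100 CPM stood against 30.8 and 49.7 CPM (-1.37, standard error 0.238, edgeR adjusted p = 0.00731). None of these groups overlapped, and all 3 calls held with any 1 sample left out and under each alternative that could be run. Without the upper UMI limit, the general prepuce was matched by name only, and its cells overlapped most with the smooth muscle population of that clustering. Of the 5666 genes tested in at least 14 populations, 4.11% were called lower in 3 or more. Cluster 4 followed, with 147 and 123 CPM against 70.4 and 65.1 CPM, but its adjusted p was 0.0645 by edgeR. In cluster 13, where *Bmp4* was highest, the controls had 736 and 548 CPM and the ablated samples 745 and 677 CPM, and the groups overlapped. The log2 fold changes in cluster 13, the distal glans and the periurethra were 0.13, 0.15 and 0.13, all uncalled. Taken by itself, distal glans cluster 3 had 550 and 459 CPM in controls and 686 and 750 CPM in ablated penises. That was a rise of 0.46 (edgeR adjusted p = 0.00682), in a fit where 8.91% of all genes were called. Distal glans cluster 1 had 244 and 162 CPM against 175 and 194 CPM, with overlap (-0.16, edgeR adjusted p = 0.775). *Inhba* and *Bmp4* moved in opposite directions in cluster 6, and there both calls held when each sample was left out.

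*Bmp5* and *Bmp6*, both of the BMP5/6/7 group, moved in opposite directions in the general prepuce, the *Akap12*- and *Dlk1*-positive mesenchyme of the foreskin. *Bmp5* (ENSMUSG00000032179; chr9:75775364-75900310) was at 3.84 and 4.10 CPM in controls (7 and 16 UMIs) and at 26.4 and 17.2 CPM in ablated penises (36 and 54 UMIs). The groups did not overlap, and the log2 fold change was 2.38 (standard error 0.369, edgeR adjusted p = 0.00399). *Bmp6* (ENSMUSG00000039004; chr13:38345107-38500302) was at 6.03 and 8.96 CPM in controls (11 and 35 UMIs) and at 0.733 and 0.637 CPM in ablated penises (1 and 2 UMIs), a log2 fold change of -3.45 (standard error 0.638, edgeR adjusted p = 0.0108). The *Bmp6* call rests on few molecules: without DTA+ replicate 2 it was -3.31 and uncalled, without DTA- replicate 2 it was below the count filter, and DESeq2 did not call it (-3.5). The *Bmp5* call held throughout, although without the upper UMI limit the general prepuce was matched by name only.

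The general prepuce held 2 clusters that split by genotype. Cluster 11 had 266 and 843 control but 41 and 18 ablated cells, and cluster 12 had 93 and 13 control but 285 and 650 ablated cells. Neither could be tested alone, and a change of level within cells cannot be told apart from a change in which cells were there. *Bmp4* was lower in ablated samples inside both: 99.7 and 95.7 CPM against 9.90 and 10.7 CPM in cluster 11, and 165 and 126 CPM against 34.5 and 51.9 CPM in cluster 12. The ablated values in cluster 11 rest on 2 and 1 UMIs. *Bmp5* was higher inside both, 3.61 and 3.98 CPM against 69.3 and 10.7 CPM in cluster 11, and 4.45 and 0 CPM against 19.0 and 17.8 CPM in cluster 12. The second ablated sample of cluster 11 had 1 UMI of *Bmp5* and the controls of cluster 12 had 2 and 0, so these directions rest on few molecules. For *Bmp6*, only the control cells of the 2 clusters are compared here. It was at 7.95 and 8.70 CPM in control cells of cluster 11, and had 0 UMIs in the control cells of cluster 12. Those were only 93 and 13 cells, so this difference rests on few molecules as well.

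**Figure D4:**
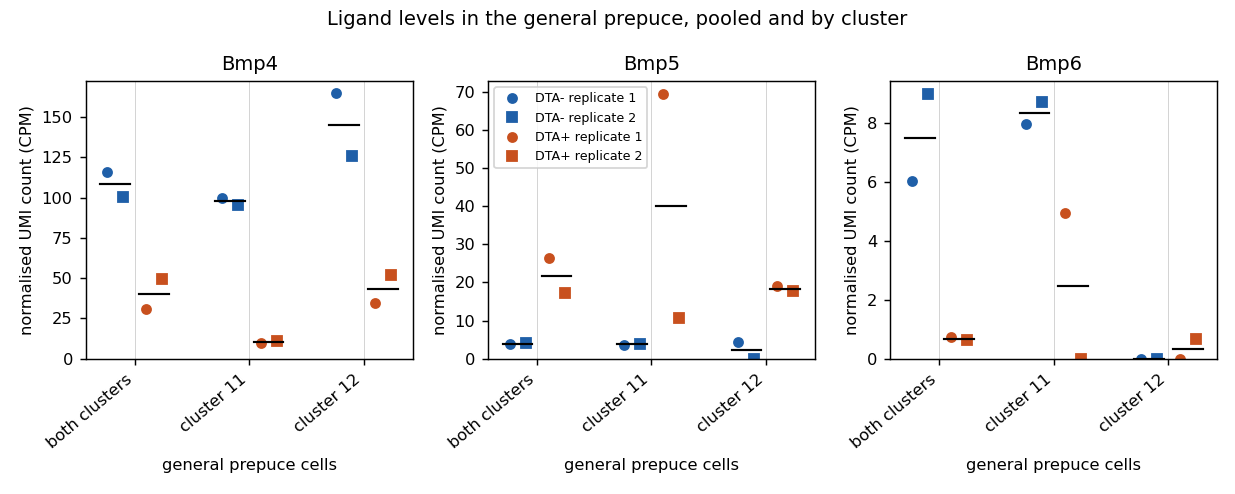
*Bmp4*, *Bmp5* and *Bmp6* in CPM in the general prepuce, for both clusters together (TMM-scaled) and for clusters 11 and 12 apart (scaled to the UMIs of the cluster); points are samples and bars genotype means. *Bmp4* was lower and *Bmp5* higher in ablated penises in each cluster, while *Bmp6* was near 0 in cluster 12 in both genotypes; the ablated samples of cluster 11 have 41 and 18 cells, with 2 and 1 UMIs of *Bmp4*.

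Elsewhere *Bmp5* was above control in the 4 other populations tested, from 0.73 in the osteogenic population to 1.26 in cluster 4. Of genes tested in exactly 5 populations, 10.6% were above 0 in all of them. It came closest to a call in the corpus cavernosum, its place of highest level, where 40.5 and 98.7 CPM stood against 114 and 142 CPM (log2 fold change 0.88, edgeR adjusted p = 0.051), and DTA- replicate 1 lay far below the other 3 samples. In osteogenic cluster 7, taken by itself, it rose from 79.5 and 87.6 CPM to 119 and 153 CPM (0.75, edgeR adjusted p = 0.0353), in a fit where 3.17% of genes were called. *Bmp6* was below control in all 6 populations tested, with -2.48 in cluster 4 and -1.67 in the periurethra as the next lowest after the general prepuce, and no sample of the 6 was above 12.6 CPM. Of genes tested in exactly 6 populations, 6.34% were below 0 in all of them. For both genes the populations share the same libraries, so their directions are not independent.

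*Bmp2* (ENSMUSG00000027358; chr2:133552159-133562885), the partner of *Bmp4* in its group, moved both ways. In the distal glans it fell from 91.1 and 94.0 CPM to 50.2 and 62.5 CPM, without overlap (-0.70, standard error 0.159, edgeR adjusted p = 0.0212), a call that was lost without DTA+ replicate 1 (-0.57), without the upper UMI limit (-0.67) and at resolution 1.2 (-0.55). Cluster 3 by itself was called at -0.46 (edgeR adjusted p = 0.0483). Cluster 1 was not called (-0.35, edgeR adjusted p = 0.807), at 8.93 and 8.21 CPM in controls and 3.49 and 9.07 CPM in ablated penises. The mix of the 2 clusters differed between samples, with 602 and 404 control and 376 and 844 ablated cells in cluster 3. Cluster 1 had 531 and 437 control and 592 and 952 ablated cells. In the pooled distal glans value, make-up and level per cell cannot be told apart. In cluster 6 *Bmp2* rose from 7.18 and 7.87 CPM to 14.7 and 17 CPM, on 14 to 27 UMIs per sample (1.08, standard error 0.349, edgeR adjusted p = 0.0481). That call was lost without DTA- replicate 1 (1.01), DTA+ replicate 1 (1.17) or DTA+ replicate 2 (0.97) and under 4 other alternatives. In the proliferative cells, 65.6 and 61.2 CPM stood against 22.5 and 38.9 CPM, with -1.05 and an edgeR adjusted p of 0.0932, and cluster 9 of these cells was called by itself (-0.91, edgeR adjusted p = 0.0366). Macrophages, the non-mesenchymal source, had 49.8 and 86.5 CPM in controls and 153 and 180 CPM in ablated penises. Those values rest on 12 to 46 UMIs, did not overlap and gave 1.26, with an edgeR adjusted p of 0.808 in a population where no gene was called.

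*Bmp3* (ENSMUSG00000029335; chr5:98854415-98884396) rose in the distal glans, from 46.3 and 55.2 CPM to 82.0 and 92.1 CPM (0.80, standard error 0.162, edgeR adjusted p = 0.0115). The groups were apart, and the call was lost without DTA+ replicate 2 (0.70). Cluster 3 of the distal glans was called by itself (0.77, edgeR adjusted p = 0.00889). Cluster 1 was not called (edgeR adjusted p = 0.0636), but its log2 fold change was larger than that of cluster 3. There *Bmp3* had 31.7 and 22.4 CPM in controls and 44.8 and 80.6 CPM in ablated penises, without overlap. The rise was therefore not confined to cluster 3. In the periurethra it rose from 8.22 and 11.7 CPM to 20.8 and 23.7 CPM (1.18, standard error 0.273, edgeR adjusted p = 0.0465), and this call was lost without DTA- replicate 1 (0.93), DTA- replicate 2 (1.44) or DTA+ replicate 2 (1.07), in DESeq2 and with the highest doublet scores left out. Cluster 10 of the periurethra was called by itself (2.30, edgeR adjusted p = 0.0457), on 0 to 17 UMIs per sample. In cluster 5, its peak, 101 and 199 CPM stood against 241 and 194 CPM, which overlapped (0.55, edgeR adjusted p = 0.129). *Bmp7* (ENSMUSG00000008999; chr2:172868012-172940321) was called in none of 12 populations, with log2 fold changes from -0.44 to 0.66 and a median of 0.13. Distal glans cluster 3 was called by itself, with 93.0 and 83.0 CPM against 127 and 138 CPM (0.53, edgeR adjusted p = 0.0331). Distal glans cluster 1 was not called (-0.14, edgeR adjusted p = 0.85). In cluster 13 *Bmp7* had 144 and 125 CPM in controls and 168 and 143 CPM in ablated penises, with overlap.

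Among targets, *Id1* (ENSMUSG00000042745; chr2:152736251-152737410) changed most in cluster 5. It was at 428 and 373 CPM in controls and at 1001 and 984 CPM in ablated penises. The genotypes were far apart compared with their spread (1.31, standard error 0.124, edgeR adjusted p = 5.82e-06), and every sample left out and every alternative kept the call. *Id3* (ENSMUSG00000007872; chr4:136143497-136145755) rose there as well, from 359 and 210 CPM to 484 and 522 CPM (0.82, standard error 0.179, edgeR adjusted p = 0.00793). This call was lost without DTA+ replicate 2 (0.77) and in DESeq2 (0.83), and the value moved to 1.26 without DTA- replicate 1 and to 0.49 without DTA- replicate 2. *Bmp4* and *Bmp7* were not called in that population, while *Inhba* was. The list of genes induced by tissue dissociation also moved in cluster 5: of its 10 genes, *Dusp1* (1.38), *Fos* (1.16) and *Junb* (0.83) rose and *Hspa1a* (-2.05) and *Hspa1b* (-2.07) fell (the 3 that rose were chosen for mention after their values were seen). Their summed level was 3523 and 8757 CPM in controls and 12178 and 8470 CPM in ablated penises, so the groups overlapped. None of the 10 was at 0, and their part in the *Id1* and *Id3* results was not tested.

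In the osteogenic population *Id1* went from 1019 and 1024 CPM to 1330 and 2338 CPM (0.85, standard error 0.198, edgeR adjusted p = 0.0468). The samples did not overlap, but DTA+ replicate 2 decided the call: without it the value was 0.38, and 6 of 11 other alternatives did not call it. Distal glans cluster 3 by itself was called too (0.65, edgeR adjusted p = 0.00199), and cluster 1 was not (0.54, edgeR adjusted p = 0.417). Their fits called 8.91% and 1.03% of all genes, and the 2 values were not tested against each other. In osteogenic cluster 7 by itself *Id1* was called at 1.12 (edgeR adjusted p = 0.0075) and *Id3* at 0.83 (edgeR adjusted p = 0.0185). The other osteogenic cluster was fitted too, and its values are not given here. *Dusp1* (1.01) and *Junb* (0.66) of the dissociation list rose in the osteogenic population too, and their part in it was not tested. DTA+ replicate 2 had the highest *Id1* level of the 4 samples in 7 of the 10 populations plotted, the exceptions being cluster 4, cluster 5 and the periurethra. In the periurethra *Id1* ran the other way, from 729 and 830 CPM to 359 and 601 CPM. The groups did not overlap, but the call was missed (-0.70, edgeR adjusted p = 0.136), and *Id3* was similar, with 889 and 818 CPM against 576 and 695 CPM (-0.42, edgeR adjusted p = 0.184). Cluster 10 of the periurethra, with *Hhip* and *Gli1*, was called for *Id1* by itself (-0.68, edgeR adjusted p = 0.0177).

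**Figure D5:**
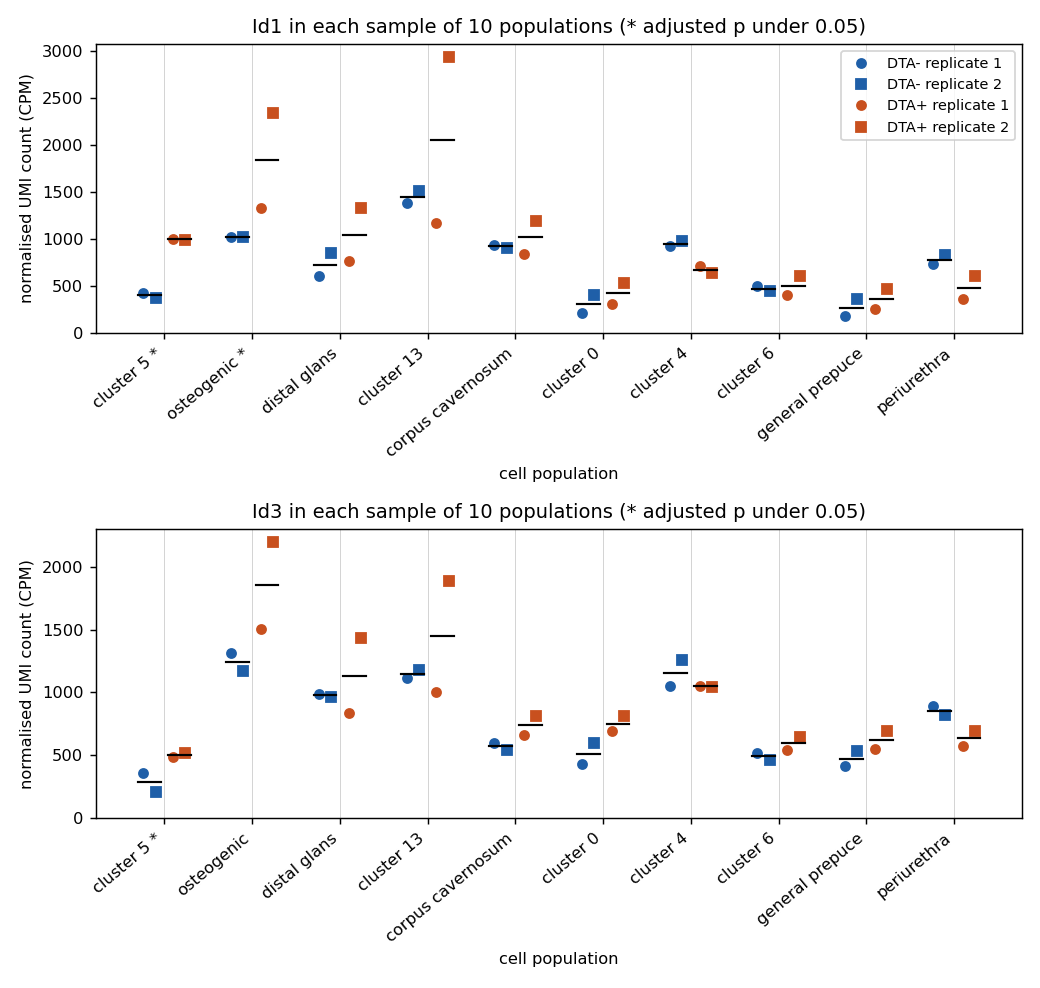
*Id1* (top) and *Id3* (bottom) in CPM in each sample of 10 populations; points are samples, bars genotype means and asterisks mark an adjusted p under 0.05. In cluster 5 both ablated samples (orange) lie above both controls (blue) for both genes, whereas in the periurethra both lie below.

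To compare effects between populations, the genotype effect in a population was tested against that in all other cells of the same samples. The make-up of those other cells differed between genotypes: cluster 17, for example, had 1 and 5 control but 515 and 272 ablated cells. In the sum over the other cells, make-up and level per cell cannot be told apart. *Id1* rose in cluster 5 more than elsewhere by 1.06 on the log2 scale (standard error 0.127, edgeR adjusted p = 1.53e-10), and in the periurethra the difference from elsewhere was -1.16 (standard error 0.123, edgeR adjusted p = 6.83e-05). *Id3* showed the same order, 0.58 in cluster 5 (edgeR adjusted p = 0.00145) and -0.81 in the periurethra (edgeR adjusted p = 0.00221). *Inhba* was called higher in both populations in the test within a population, but its difference from elsewhere was called in neither. Of 190 such tests on members, 19 passed, where 1.2% of all genes and populations did.

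*Smad6* (ENSMUSG00000036867; chr9:63953076-64022059) was called in none of the 12 populations in which it was tested. Its log2 fold change was above 0 in all 12, from 0.13 in the periurethra and proliferative cells to 0.76 in the corpus cavernosum. Of genes tested in exactly 12 populations, 2.94% were above 0 in all of them. The populations share the same 4 libraries, and over all kept cells the *Smad6* value of 0.43 was 0.02 without DTA+ replicate 2. In the corpus cavernosum the controls had 12.3 and 13.1 CPM and the ablated samples 19.5 and 23.4 CPM, without overlap (edgeR adjusted p = 0.0808). Levels were low, at 7 to 204 UMIs per sample in the tested populations.

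The other genes of the pathway were taken from lists and counted in the same 19 populations, where 3.2% of all pairs of gene and population were called. These lists, too, were chosen with earlier results of these data known. Of the other ligands, 5 of 51 pairs of gene and population rose and 3 fell. *Gdf6*, a BMP-type ligand of joint and bone formation, made 4 of the 5. It was at 0.357 and 0.903 CPM in controls and 8.31 and 7.0 CPM in ablated penises in the periurethra (3.55, edgeR adjusted p = 0.0118). It also rose in cluster 6 (2.31), the corpus cavernosum (1.15) and cluster 0 (1.12). *Gdf10* fell in the periurethra (-2.56) and cluster 5 (-1.56) and rose in the corpus cavernosum (0.81).

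Receptors and co-receptors changed in 7 of 148 pairs, 5 of them higher, a share near that over all genes. *Tgfbr3*, a co-receptor that also binds inhibins, rose in cluster 5 (1.29) and the corpus cavernosum (1.0), and *Rgma*, a BMP co-receptor, in cluster 5 (0.98) and cluster 6 (0.97). *Bmpr2*, the type II BMP receptor, rose in the corpus cavernosum (0.56). *Acvrl1* fell in the general prepuce (-1.53) and cluster 6 (-1.26). Of the SMAD genes, 4 of 107 pairs rose and none fell, again near the share over all genes. *Smad9* went from 0.345 and 0.488 CPM to 5.44 and 4.28 CPM in cluster 0 (3.39, edgeR adjusted p = 0.0104) and rose in cluster 6 (1.55), whereas *Smad3* (0.99) and the inhibitory *Smad7* (0.62) rose in cluster 5, where *Id1* and *Id3* did. Other targets changed in 2 of 97 pairs, below that share, *Bambi* in the corpus cavernosum (0.77) and *Id4* in the periurethra (-1.0).

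Of the antagonists, 10 of 146 pairs were higher and 14 lower. *Fst*, which encodes follistatin, the main binding protein of activin, was called lower in 6 of 14 populations. Of the 5 in which *Inhba* was called higher, 4 were among these. In those 4, between 3.51% and 12.3% of all genes were called. Of 5666 genes tested in at least 14 populations, 4.11% were called lower in 3 or more, a looser threshold than the 6 of *Fst*. The share for 6 or more was not counted. A link between *Fst* and *Inhba* was not tested. In the periurethra *Fst* went from 447 and 630 CPM to 121 and 151 CPM, without overlap (-1.98, edgeR adjusted p = 0.000748). It also fell in cluster 6 (-3.48), the corpus cavernosum (-1.62), the distal glans (-1.30), the osteogenic population (-3.92) and cluster 16 (-2.45), and *Inhba* was not called in the last 2. *Nog*, which binds BMP2 and BMP4, rose in cluster 6 (3.46) and cluster 5 (1.81). In the general prepuce *Bmper* rose (3.67). *Grem1* fell there (-1.76) and in the corpus cavernosum (-0.71) and rose in cluster 6 (2.95). *Sostdc1* fell in cluster 0 (-0.90), cluster 4 (-1.32), cluster 6 (-1.09), the general prepuce (-1.65) and red blood cells (-1.60), and rose in the distal glans (1.13). The values of *Fst* in cluster 16, of *Grem1* outside the general prepuce and of *Sostdc1* outside cluster 0 were chosen for mention after they were seen. *Fstl3* fell in the distal glans (-1.14), *Nbl1* rose in the corpus cavernosum (1.32) and *Fstl1* in the periurethra (0.82).

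A list of 8 glucocorticoid-induced genes was called lower in 42 of 110 pairs and higher in 2, where 1.66% of all pairs were lower and 1.54% higher. *Fkbp5* was lower in 13 of 15 populations. In the periurethra *Fkbp5* went from 127 and 120 CPM to 5.71 and 3.04 CPM. The list was also chosen with earlier results of these data known, and its part in the results on the 10 genes was not tested. Dissociation genes rose in 6 and fell in 9 of 180 pairs, in both directions a larger share than the 1.54% and 1.66% over all genes.

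The genes whose pattern over the 21 populations was most like that of a member were found by Pearson's r of log2(CPM + 10), among 10821 genes with at least 20 CPM in 1 population. All populations share the same 4 libraries, and r is a description. For *Inhba* they were *Efnb3* (0.80), *Plekhh2* (0.79) and *Ikzf4* (0.79), and for *Bmp4* *Cpne5* (0.87), *Cped1* (0.86) and *Epha7* (0.85). *Bmp7* was most like *Hs3st6* (0.90), *Fzd10* (0.86) and *Cux2* (0.85), *Bmp3* like *a* (nonagouti, 0.87), *Fgf9* (0.85) and *Unc5d* (0.85), and *Bmp2* like *Evl* (0.74), *Rnf150* (0.73) and *Impact* (0.72). *Bmp5* was most like *Gm26903* (0.90), an antisense gene that overlaps it, then *Kctd16* (0.80) and *Ostn* (0.76). For the targets, *Id1* had *Zbed3* (0.86), *Mterf3* (0.85) and *Crebzf* (0.84), *Id3* had *Wtip* (0.90), *Nradd* (0.88) and *Arhgap35* (0.87), and *Smad6* had *Nnt* (0.91), *Supt20* (0.91) and *Ctr9* (0.90). When the 2 populations with few cells were left out, none of the 3 genes of *Smad6* stayed among its first 3. *Bmp6* was below 20 CPM throughout. Between members, r was highest for *Bmp3* and *Bmp7* (0.78) and for *Id1* and *Id3* (0.78), and lowest for *Bmp2* and *Smad6* (-0.14).

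Counted genes on the other strand overlap *Bmp4* (*Gm15217* and *Gm15222*), *Bmp5* (*Gm26903*), *Bmp6* (*4930579J19Rik* and *Txndc5*) and *Inhba* (*Gm48444*) in the GENCODE annotation of GRCm38. The strand setting of the counting is not given in the sources used here, so reads of these genes and of their partners may not be told apart. The other 6 members overlap no counted gene.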

How the data were processed

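The 4 samples are single-cell RNA libraries of E16.5 penises, 2 per genotype. Per the file headers and the submitters' notes, the deposited UMI counts were made by the authors with Cell Ranger 4.0.0 on mm10 with reporter sequences added, whereas the methods name another version, and they are unnormalized counts per gene and cell. Other libraries of the study were not analysed here. The members and gene lists were chosen with earlier results of these data known.

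Cells were kept with more than 1000 and fewer than 7500 UMIs, up to 25% mitochondrial, 25% *Hba* and 50% *Hbb* counts. Kept cells were clustered jointly with Seurat 5.3.0 (R 4.3.3), using 2000 variable genes, 30 principal components and resolution 0.8. A cluster was named when at least 3 fixed markers of a class were enriched in it (5% of cells, and 0.8 on the log2 scale after adding 10 CPM). A marker of the class also had to be among the 25 leading genes of the cluster. No other class could have more markers among the first 10. Cluster 13 met the first of these rules for the distal glans, but not all, and stayed unnamed. Scrublet in scanpy 1.11.5 marked 1, 0, 1 and 48 cells at its automatic threshold, and no doublets were removed. Whether its scores mark doublets in these data was not tested, so leaving out the highest scores is a limited check. Counts were summed per sample and population with at least 20 cells in each sample and tested with edgeR 4.0.16 (TMM, its default filter on low counts, quasi-likelihood, genotype as the one term, Benjamini-Hochberg within a population), with DESeq2 1.42.0 as an alternative. Differences between populations were tested as an interaction with sample as a block. The tests were tried on simulated data first, where 200 genes were given a log2 fold change of 1. The genotype test found 100 of them over all kept cells, with 20 false calls. It found 127 in the distal glans (9 false) and 97 in the periurethra (21 false). The interaction test in the periurethra found 62 (15 false). Some calls reported here may therefore be false. In epithelium only 5 were found (3 false), so the lack of calls there says little. With 2 against 2 samples an exact permutation test cannot go below p = 0.333, so none was used. All members were described, other listed genes were named where called beside a member, at most 2 per list and population by size of change, and the 3 genes most correlated with each member. Alternatives were the count filter, thinning to 1000 UMIs, no upper UMI limit, other clusterings, doublet scores, a replicate block and leaving out each sample. Fits of each cluster by itself were added after the data were seen, and not all of them are given. Those of osteogenic cluster 15 and proliferative cluster 14 are left out. Periurethra cluster 8 is given for *Inhba* alone.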

Additional observations from a re-analysis of the deposited data

Results flagged for a closer look

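In 19 instances the genotype effect on a member in 1 population differed from its effect in all other cells of the same samples. These passed edgeR's test of the interaction term at an adjusted p under 0.05. The values here are that difference of log2 fold changes. The make-up of those other cells differed between genotypes as well. *Bmp2* had 1.46 in cluster 6 (edgeR adjusted p = 0.00171), 0.82 in the corpus cavernosum, 1.66 in macrophages and -0.82 in proliferative cells. *Bmp4* had -1.96 in cluster 0, -1.30 in cluster 6 (edgeR adjusted p = 1.49e-13), -1.34 in the general prepuce and -1.01 in cluster 16. *Bmp5* had 1.30 and *Bmp6* had -2.85 in the general prepuce. *Inhba* had 1.77 in cluster 6 (edgeR adjusted p = 3.27e-10) and 0.51 in the corpus cavernosum. *Id1* had 1.06 in cluster 5, -1.16 in the periurethra and -0.86 in cluster 4. *Id3* had 0.58 in cluster 5, -0.81 in the periurethra, -0.53 in endothelium and -0.52 in neural cells.

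Single libraries moved several of these by more than 1.5 times. *Bmp4* in cluster 16 was -2.26 without DTA+ replicate 1, the one sample whose absence kept the call, and -0.12 without DTA+ replicate 2, -1.06 without DTA- replicate 1 and -0.94 without DTA- replicate 2, while *Id1* in cluster 4 was -1.38 without DTA+ replicate 1 and, uncalled, -0.33 without DTA+ replicate 2. *Bmp4* in cluster 6 was -0.86 without DTA+ replicate 2, and *Id1* in cluster 5 was 0.61 without DTA+ replicate 1, both still called. *Inhba* in the corpus cavernosum was 0.25 without DTA- replicate 1 and 0.38 without DTA+ replicate 1, both uncalled. *Id3* in cluster 5 was 0.37 without DTA+ replicate 1, 0.95 without DTA- replicate 1 and 0.25 without DTA- replicate 2, called in the second case alone. In endothelium *Id3* was -0.28 without DTA+ replicate 2 and -0.32 without DTA- replicate 1, and in neural cells -0.24 without DTA+ replicate 1, -0.69 without DTA+ replicate 2 and -0.11 without DTA- replicate 1, all uncalled.

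Other calls were lost with smaller moves. *Bmp2* was uncalled in the corpus cavernosum without DTA+ replicate 1 (0.66) or DTA- replicate 1 (0.68), in proliferative cells without DTA+ replicate 1 (-0.59), and in macrophages without any 1 sample (1.33 to 2.16). *Bmp5* in the general prepuce was uncalled without DTA+ replicate 1 (0.87), DTA- replicate 1 (1.42) or DTA- replicate 2 (1.08), and *Bmp6* there without DTA+ replicate 2 (-2.50) or DTA- replicate 2 (-2.58). *Id3* in the periurethra was uncalled without DTA- replicate 1 (-0.77) or DTA- replicate 2 (-0.84). The other calls, those of *Bmp2*, *Bmp4* and *Inhba* in cluster 6, of *Bmp4* in cluster 0 and the general prepuce, and of *Id1* in cluster 5 and the periurethra, held with each sample left out.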

How the results depend on the processing

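Over all kept cells, edgeR's quasi-likelihood test called 0 members. DESeq2 called 2, edgeR's likelihood ratio test 2, the fit without the count filter 2 and the fit with a replicate block 2. The share of all genes called rose as well, from 0.488% to 3.45%, 4.12%, 2.8% and 2.1% in that order. Over the populations, the 17 calls became 26 with the likelihood ratio test, 33 without the count filter, 26 without the upper UMI limit and 26 with a replicate block (4.76%, 2.47%, 3.04% and 3.59% of all genes, against 3.2%), and 14 to 28 with 1 sample left out. The 19 differences between populations became 29 without the count filter, where the share of all genes was 1.03%, against 1.2%. The cause was not tested. Deviations of same-numbered samples correlated at -0.234 over all cells, so the replicate numbers did not pair the samples. With the numbers crossed, an alternative chosen after seeing the data, 4 members were called over all cells and 35 pairs over the populations, where the shares of all genes were 10.4% and 6.02%. Of the 17 calls, DESeq2 kept 11, thinning 11, clustering without the pathway genes 15 and leaving out DTA+ replicate 2 kept 9. No direction reversed. Numbered clusters without a match in another clustering gave no value there. Named populations were matched by name, whatever their overlap in cells. Without the upper UMI limit, the cells of the general prepuce overlapped most with the smooth muscle population of that clustering. After thinning, 11 calls were kept and 2 were lost, and the others gave no value because of low counts. Low counts kept *Bmp5* to 5 tested populations and *Bmp6* to 6.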
